A study of Capra hircus with 4 samples.

Results

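FSHR and LHCGR encode the ovarian receptors of the 2 pituitary gonadotropins, follicle-stimulating hormone (FSH) and luteinizing hormone (LH). Both genes were followed across the nuclei of 4 goat ovaries, as 2 of the 28944 genes counted in 48332 deposited nuclei. Both were taken by name. In the 2 deposited tables of granulosa genes they were looked up by the same names.

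Both receptors are membrane proteins of the glycoprotein hormone receptor family, a branch of the LGR (leucine-rich repeat) receptors that also holds the thyrotropin receptor TSHR. Each couples mainly to the stimulatory G protein, which drives adenylyl cyclase, cyclic AMP and protein kinase A. In the growing follicle FSHR is known from granulosa cells, where FSH promotes aromatase, inhibin and LHCGR itself. LHCGR is known from theca cells, where LH drives androgen synthesis, and from the mural granulosa cells of large antral follicles, which need it to answer the ovulatory LH surge. Cumulus cells around the oocyte are known to hold far less of it than mural cells.

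The nuclei came from the left ovaries of 2 Du'an goats (litter size 1) and 2 Nubian goats (litter size 3), all about 3 years old. Every goat, of both breeds, carried a progesterone insert of 300 mg for 17 days to bring it into estrus, so no goat shows the ovary without that treatment. Each library was 1 goat. Adventitia and fat were removed from the ovary before nuclei were isolated, and no cell type was sorted. The 2 goats of a breed are separate animals, and breed cannot be told apart from anything else that differed between these 2 pairs of goats.

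A library held 9364 to 16988 nuclei and 40573246 to 71613892 UMIs (unique molecular identifiers, each counting 1 captured RNA molecule). FSHR gave 62917, 115149, 104634 and 51894 UMIs in Du'an 1, Du'an 2, Nubian 1 and Nubian 2, the order used for every set of 4 values here. LHCGR gave 491, 44342, 51114 and 6895. The Du'an 1 library stood apart from the others in LHCGR, and results that rest on it are given with and without it. A pair of libraries shared 54 to 131 cell barcodes, at most 1.4% of the smaller library. After filters on UMIs, genes and mitochondrial share 8723, 9999, 15846 and 10300 nuclei were kept, with median depths between 1755 and 3317 UMIs.

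The kept nuclei were clustered without FSHR, LHCGR, the marker genes and the genes of the pathway lists, and clusters were named from marker genes that include neither receptor. A level is given as CPM, the UMIs of a gene per 1000000 UMIs of all nuclei of 1 class in 1 goat. A class enters for a goat with at least 20 nuclei. This sets Du'an 1 aside for the mural-like granulosa class, where it had 3 nuclei beside 1511, 4994 and 425 in the other goats. The mural-like nuclei of different goats also lay in different subclusters, which hold 1426 nuclei from Du'an 2, 4582 from Nubian 1 and 390 from Nubian 2. No cluster was named as oocytes or B cells. The theca-like cluster had all 7 theca markers raised, but none of them was among its 10 leading genes, and stromal markers were its next best list. Fewer cells with a receptor and less RNA per cell cannot be told apart in a summed level.

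FSHR was highest in cumulus-like granulosa nuclei, at nearly the same level in the 4 goats. Its cumulus-like levels were 3437, 3519, 3546 and 3523 CPM, a mean of 3506 ± 47.4 (SD, n = 4 goats). In cycling granulosa-like nuclei, which carry cell-division genes, FSHR was at 3133, 2712, 1442 and 2596 CPM (2471 ± 724). Every goat was lower here than in its cumulus-like class, and the ranges of the classes did not overlap. In mural-like granulosa nuclei, the class named by aromatase and inhibin genes, FSHR was at 1402, 1488 and 2058 CPM in Du'an 2, Nubian 1 and Nubian 2 (1649 ± 356, n = 3). Progenitor-like granulosa nuclei had the least FSHR of the 4 granulosa subtypes, at 924, 597, 1127 and 871 CPM. This is above the smooth muscle-like class of the same goat in 4 of 4 goats, although the ranges over goats overlapped.

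Outside the granulosa set the mean FSHR level of every named class but 1 was below that of each granulosa subtype. The exception was a luteal-like cluster of 71 nuclei from Nubian 1 alone, at 1201 CPM, above the progenitor-like mean of 880 CPM. The ranges of the other classes overlapped with those of their neighbours in the order of means. Smooth muscle-like nuclei had 629, 593, 688 and 419 CPM. Theca-like nuclei, named for the steroid-producing cells in the outer layer of the follicle wall, had 189, 162, 346 and 219 CPM. T or natural killer-like nuclei, which should lack the receptor, had 237, 546, 469 and 120 CPM, so theca-like FSHR lay below this immune level in 3 of 4 goats. A level in this range is not read as expression of the receptor, and its source was not tested. Single T or natural killer-like nuclei held up to 68 FSHR UMIs, although the median was 0 in every goat. The granulosa set, all granulosa classes together, held 94.4%, 93.0%, 88.7% and 94.0% of the FSHR UMIs of the kept nuclei. Cumulus-like nuclei alone held 42.8%, 70.1%, 38.6% and 44.0%.

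LHCGR was highest in 2 classes, mural-like granulosa and theca-like nuclei. In mural-like nuclei it was at 3017, 1461 and 1788 CPM in Du'an 2, Nubian 1 and Nubian 2 (2089 ± 820, n = 3). In theca-like nuclei it was at 495, 2606, 1667 and 1050.1 CPM (1454 ± 905, n = 4). Levels of the 2 classes overlapped, with mural-like nuclei the higher in 2 of the 3 goats that had both. Both stood above all other named classes in the 3 goats with a mural-like level, as did theca-like nuclei in Du'an 1. Theca-like nuclei exceeded smooth muscle-like nuclei, the next in order, in 4 of 4 goats without overlap of the ranges.

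Theca-like nuclei were few, at 57, 96, 77 and 157, and their LHCGR rested on 63, 1046, 376 and 340 UMIs. For Du'an 1 the exact binomial interval (95%, counting error only) of the theca-like level was 380.3 to 633 CPM, so its low place among the 4 goats lies beyond counting error. Theca-like nuclei also carried RNA of genes on the granulosa marker list. The summed level of the 11 granulosa markers was 1634 to 3883 CPM in them. It was 10529.7 to 10863 CPM in mural-like nuclei but only 1552 to 2533 CPM in progenitor-like granulosa nuclei. Its part in the theca-like LHCGR level was not tested. In Du'an 1, which had almost no mural-like nuclei, theca-like LHCGR was 495 CPM while cumulus-like LHCGR was 3.34 CPM.

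The remaining named classes had less LHCGR than the mural-like or theca-like nuclei of the same goat, and each had its highest level in Du'an 2 or Nubian 1. Among them cycling nuclei reached 500.2 CPM in Nubian 1 and smooth muscle-like nuclei 375 CPM in Du'an 2. Cumulus-like nuclei had the lowest mean of all classes, with 3.34, 79.5, 75.9 and 14.1 CPM. Progenitor-like nuclei had 10.9, 110.3, 122 and 107 CPM. T or natural killer-like nuclei had 0, 262, 159.5 and 12.9 CPM, and blood endothelial-like nuclei 0, 289, 174 and 19.9 CPM. In Du'an 2 and Nubian 1, where LHCGR was plentiful, T or natural killer-like and blood endothelial-like nuclei thus carried more of it than cumulus-like or progenitor-like nuclei. Cumulus-like LHCGR lay below the T or natural killer-like level in those 2 goats, was 14.1 against 12.9 CPM in Nubian 2, and was 3.34 CPM against 0 of 337403 UMIs in Du'an 1. That count of 0 allows up to 8.89 CPM. Progenitor-like LHCGR exceeded the immune level in Nubian 2 (107 against 12.9 CPM) and Du'an 1 (10.9 against 0), and fell short of it in the other goats.

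**Figure D1:**
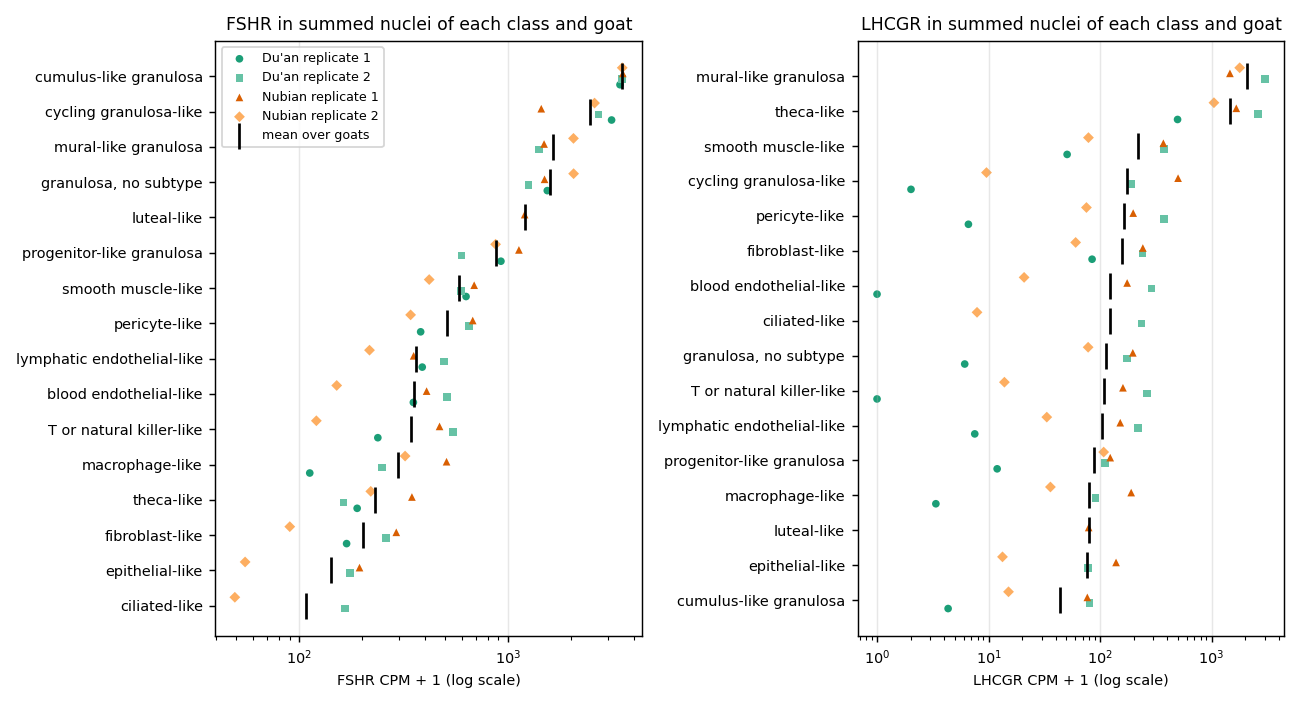
FSHR (left) and LHCGR (right) in CPM on a log scale for each cell class and goat, with 1 CPM added so that a class at 0 is drawn at 1; each point is 1 goat and the bar is the mean over goats. FSHR is highest in the granulosa classes and peaks near 3506 CPM in cumulus-like nuclei, while LHCGR peaks in mural-like (mean 2089 CPM) and theca-like nuclei (mean 1454 CPM).

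Set beside FSHR from the same nuclei, LHCGR set theca-like nuclei far apart from cumulus-like nuclei within each goat. The ratio is given as LHCGR UMIs per 100 FSHR UMIs. It compares classes and not the 2 genes, since FSHR is the longer gene (189533 bases against 59181 in the RefSeq annotation of ARS1.2) and nuclear RNA includes introns. Over a whole library the ratio was 0.658, 38.9, 48.4 and 13.3. T or natural killer-like nuclei had 0, 47.9, 34.0 and 10.7, above the library ratio of their goat in Du'an 2 and below it in the others, and macrophage-like nuclei had 2.13, 36.3, 37.3 and 10.9. Theca-like nuclei had 262.5, 1609, 482 and 479, far above their library in 4 of 4 goats. Mural-like nuclei had 215, 98.2 and 86.9, above their library in 3 of 3. Cumulus-like nuclei had 0.0972, 2.26, 2.14 and 0.40, far below it in 4 of 4. Smooth muscle-like nuclei had 7.90, 63.2, 53.6 and 18.6, above the library in each goat but by much less than theca-like nuclei. Fibroblast-like nuclei had 50, 92.6, 82.9 and 66.7, also above the library in each goat. Their ratios rested on 7, 25, 432 and 6 LHCGR UMIs, and came near the mural-like ratios in Nubian 1 and Nubian 2. A high ratio alone thus did not mark mural-like nuclei.

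**Figure D2:**
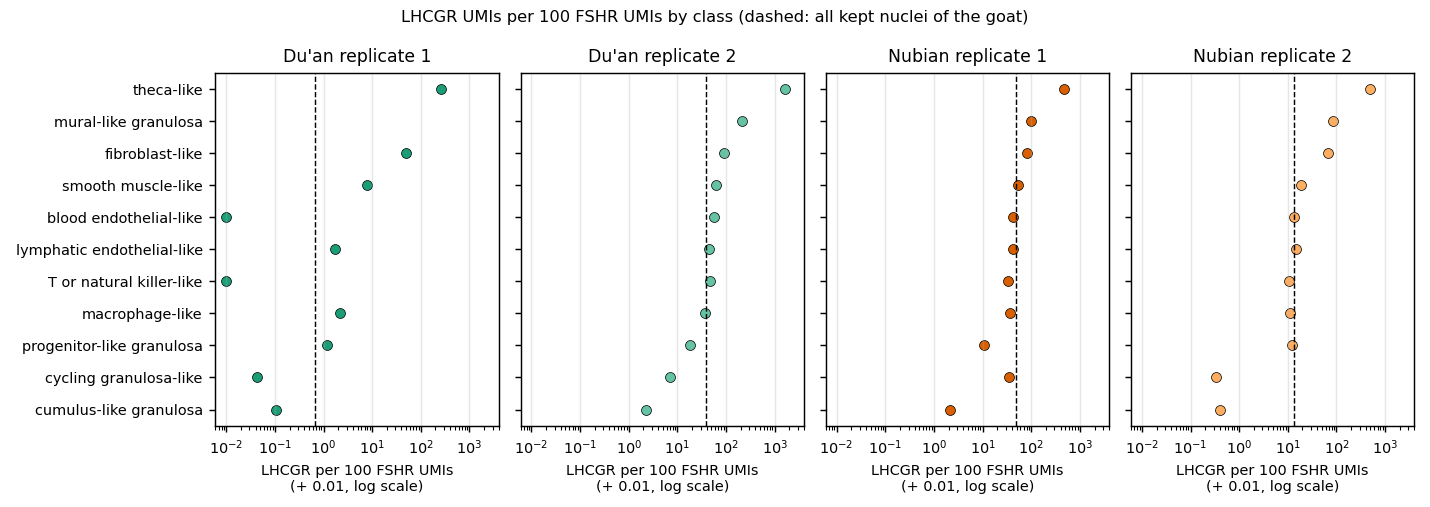
LHCGR UMIs per 100 FSHR UMIs on a log scale, per cell class and goat, with 0.01 added so that classes with no LHCGR UMI are drawn at 0.01 and a dashed line at the ratio over all kept nuclei of the goat. Each panel is 1 goat: theca-like points lie at 262.5 to 1609 and cumulus-like points at 0.0972 to 2.26. Immune and endothelial points lie between these, except in Du'an replicate 1, where blood endothelial-like and T or natural killer-like nuclei had no LHCGR UMI. Immune and endothelial points lie on both sides of the dashed line in every goat but Nubian replicate 1, where all lie below it.

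The class differences were larger than the spread between goats. UMIs of the nuclei of a class were added up within each goat, and edgeR's quasi-likelihood test compared each class with the mean of the other classes, over 52 sums and 14707 genes and with a block for goat. These nuclei also built the classes, so a test here is of the spread between goats and not of the existence of the class. FSHR was higher in cumulus-like nuclei by 3.25 on the log2 scale (SE 0.186, adjusted p = 2.57e-18), where 34.2% of all genes passed. It was higher by 2.73 in cycling granulosa-like nuclei (SE 0.195, adjusted p = 3.41e-16; 38.4% of genes passed) and by 2.26 in mural-like nuclei (SE 0.231, adjusted p = 5.95e-11; 32.4%). In progenitor-like nuclei the rise was 1.17 (SE 0.222, adjusted p = 5.26e-05; 26.4%). FSHR was higher in all 4 granulosa subtypes and lower in 5 classes outside the granulosa set. It was lower in theca-like nuclei, with a log2 difference of -1.38 (SE 0.301, adjusted p = 0.000690, where 16.4% of genes passed). The others were ciliated-like (-2.19; 25.6%), epithelial-like (-2.27; 23.7%), fibroblast-like (-1.61; 21.3%) and macrophage-like nuclei (-0.70, adjusted p = 0.0244; 51.9%). The macrophage-like call was lost without Du'an 1 (-0.52, adjusted p = 0.167) and without Du'an 2 (-0.67, adjusted p = 0.0713). The theca-like direction turned when nuclei were chosen by their own markers in place of clusters (0.84, adjusted p = 0.371). Mean FSHR in the 5 lower classes was 106 to 297 CPM, below the T or natural killer-like mean of 343 CPM. Levels in this range were not read as expression of the receptor.

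LHCGR was higher in 2 classes and lower in 2. In mural-like nuclei it was higher by 4.45 on the log2 scale (SE 0.344, adjusted p = 2.68e-14 by edgeR's quasi-likelihood test, 3 goats). In theca-like nuclei it was higher by 3.88 (SE 0.352, adjusted p = 4.01e-12, 4 goats). In cumulus-like nuclei it was lower, at -2.02 (SE 0.504, adjusted p = 0.00127). Without Du'an 1 these values were 4.43, 3.51 and -1.93, and all 3 passed. Epithelial-like nuclei were also lower (-2.09, adjusted p = 0.0163), a call lost without Du'an 2 (adjusted p = 0.0729) or Nubian 2 (0.0807). Progenitor-like (-0.14), cycling (-0.10) and smooth muscle-like nuclei (0.65, adjusted p = 0.375) did not pass. The cycling value was not stable, at -1.46 (adjusted p = 0.0442) without Nubian 1 and 0.30 without Nubian 2.

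**Figure D3:**
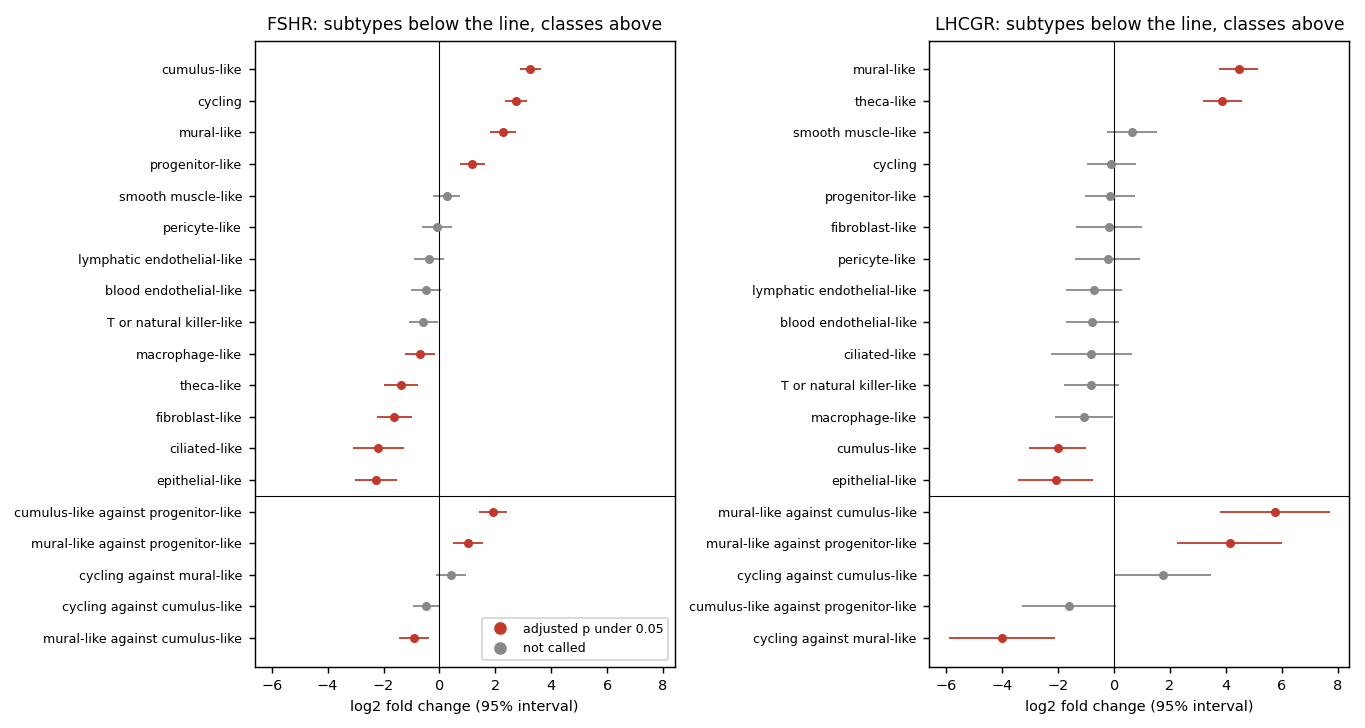
Log2 fold changes of FSHR and LHCGR from edgeR, each cell class against the mean of the other classes and granulosa subtypes against each other, with points for the estimate and bars for its 95% interval; red points have an adjusted p under 0.05 and grey points do not. LHCGR reaches 4.45 in mural-like and 3.88 in theca-like nuclei and 5.76 between mural-like and cumulus-like nuclei, where FSHR is at -0.90.

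Within the granulosa set the 2 receptors moved in opposite directions between mural-like and cumulus-like nuclei. This fit used 15 sums and 13068 genes, with Du'an 1 present in every subtype but the mural-like one. LHCGR was higher in mural-like nuclei by 5.76 on the log2 scale (95% interval 3.78 to 7.73, adjusted p = 0.00212), a 54.0-fold difference, in a contrast where 17.6% of genes passed. FSHR was lower in them, at -0.90 (SE 0.246, adjusted p = 0.0265). Leaving out 1 goat kept LHCGR between 5.07 and 6.20 and past the threshold each time. The base of this fold, cumulus-like LHCGR, was at 79.5, 75.9 and 14.1 CPM in Du'an 2, Nubian 1 and Nubian 2. The T or natural killer-like levels of these goats were 262, 159.5 and 12.9 CPM. The size of the fold thus rests on a base below or near the immune level. The FSHR difference kept its direction (-1.04 to -0.75) but was lost without Du'an 1 (adjusted p = 0.0505), Du'an 2 (0.178) or Nubian 2 (0.0619).

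Mural-like nuclei exceeded progenitor-like nuclei in both receptors. The log2 difference was 4.14 for LHCGR (SE 0.863, adjusted p = 0.00379) and 1.03 for FSHR (SE 0.242, adjusted p = 0.00777), with 27.6% of genes passing. Without Du'an 2 the adjusted p of LHCGR was 0.0525, and without Nubian 2 that of FSHR was 0.0717. Cumulus-like nuclei exceeded progenitor-like nuclei in FSHR by 1.92 (SE 0.227, adjusted p = 0.000111; 25% of genes passed). Their LHCGR was at -1.61 against progenitor-like nuclei, with an interval of -3.30 to 0.07 that leaves no call (adjusted p = 0.152).

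Cycling nuclei had less LHCGR than mural-like nuclei, at -4.01 (SE 0.879, adjusted p = 0.00863; 17% of genes passed), which without Du'an 2 was -4.05 (adjusted p = 0.0981). Against cumulus-like nuclei neither receptor passed (LHCGR 1.74, adjusted p = 0.179; FSHR -0.48, adjusted p = 0.177; 13.3% of genes passed), and FSHR did not pass against mural-like nuclei (0.41, adjusted p = 0.290). The class joined 2 unlike subclusters. The first lay in all 4 goats, with LHCGR at 1.02, 62.5, 46.9 and 6.65 CPM and FSHR at 3133, 2734, 3245 and 2634 CPM. The other held 695 nuclei of Nubian 1 and 38 of Du'an 2. Its LHCGR was 549.5 and 846 CPM in these goats and its FSHR 1246 and 2599 CPM. The low FSHR of the class in Nubian 1 thus lay in the second subcluster. Its LHCGR spread widely without that goat too, from 1.02 CPM in Du'an 1 to 189 CPM in Du'an 2.

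**Figure D4:**
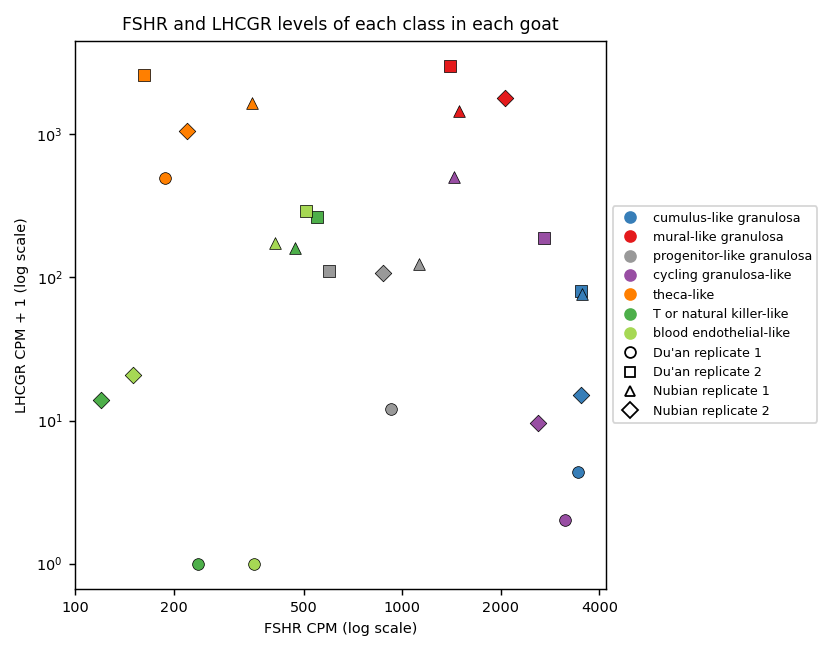
FSHR level (horizontal, CPM, log scale) against LHCGR level (vertical, CPM plus 1, log scale), 1 point per cell class and goat, coloured by class. Cumulus-like points lie at the right between 3437 and 3546 CPM of FSHR, mural-like points are high on both axes, and theca-like points are high in LHCGR with FSHR between 162 and 346 CPM.

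The 15 granulosa subclusters showed the same split in finer steps. The 3 large cumulus-like subclusters had LHCGR between 0 and 158 CPM in every goat with at least 20 nuclei. The mural-like subclusters had 913 to 3053 CPM. Among them, the main Du'an 2 subcluster had 3053 CPM of LHCGR and 1409 CPM of FSHR, and the main Nubian 2 subcluster had 1858 and 2044 CPM. Progenitor-like nuclei fell mainly in 2 subclusters. In the first, LHCGR was 68.6, 407, 264 and 126 CPM, above the T or natural killer-like level in 4 of 4 goats. In the second, it was 9.12, 72.1, 93.3 and 15.5 CPM, above that level in 2 of 4. The Du'an 1 value was within the exact interval of its immune count of 0, which reaches 10.9 CPM. A small further subcluster of 31, 82, 43 and 21 nuclei had LHCGR at 0, 54.4, 521 and 0 CPM. Its FSHR was 381, 290, 354 and 200 CPM, within the T or natural killer-like range of 120 to 546 CPM. No test was run between subclusters, which differ in which goats fill them.

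Nuclei were also sorted by whether they held a UMI of each receptor. Of all 48332 deposited nuclei, 10872 had both, 19812 had FSHR only, 3228 had LHCGR only and 14420 had neither. The share with both was 1.29%, 31.6%, 37.3% and 8.76%, and the share with FSHR only was 57.8%, 36.8%, 32.6% and 43.8%. LHCGR alone was found in 0.726%, 10.6%, 9.24% and 3.89%. The Du'an goats lay at 1.29% and 31.6% for nuclei with both and the Nubian goats within that range or above it, so the 2 breeds overlapped. The single nucleus richest in FSHR had 235 UMIs of it, in Du'an 1, and the one richest in LHCGR had 285, in Du'an 2.

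Detection depends on depth, so nuclei were reduced to 1000 randomly drawn UMIs, and shallower nuclei were left out. Of the thinned cumulus-like nuclei 91.3%, 92.0%, 93.0% and 92.7% had FSHR, against 13.3%, 27.8%, 24.9% and 10.1% of T or natural killer-like nuclei. Only 0.853%, 9.37%, 8.98% and 1.73% of cumulus-like nuclei had LHCGR. The T or natural killer-like shares for LHCGR were 0%, 15.5%, 13.4% and 0.337%, higher than the cumulus-like shares in Du'an 2 and Nubian 1. There the cumulus-like share is not read as expression of LHCGR. Median depths of the 2 classes before thinning were 3344 to 5569 and 2226 to 2723 UMIs. Without thinning, 96.3% to 97.5% of cumulus-like nuclei had FSHR and 1.35% to 32.3% had LHCGR.

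Both receptors were found together most often in mural-like nuclei. After thinning, LHCGR was present in 81.6%, 58.1% and 55.1% of them and FSHR in 59.8%, 66.4% and 71.9%. Both were found in 47.1%, 36.7% and 36.1%, a mean of 40.0% ± 6.19 (n = 3). The product of the 2 shares, the value for independent detection, was 48.8%, 38.5% and 39.6%. The share with both was thus slightly under that product in each of the 3 goats. FSHR was found in 57.7%, 63.2% and 65.5% of the mural-like nuclei with LHCGR and in 68.9%, 70.8% and 79.8% of those without. FSHR was thus somewhat less frequent beside LHCGR in 3 of 3 goats at this depth. Without thinning the direction turned in Du'an 2 and Nubian 1, where LHCGR was found in 95.4% and 77.7% of the nuclei with FSHR and in 88.5% and 53.2% of those without. In Nubian 2 these shares were 67.9% and 71.1%. Subclusters, which differ in both receptors, were pooled here. The unthinned share with both was 83.3%, 65.9% and 60.7%. Cycling nuclei held both in 0%, 9.09%, 19.2% and 0.34% after thinning and in 0.581%, 38.4%, 63.9% and 4.97% without it, so those of Nubian 1 came near the mural-like share unthinned.

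Thinned theca-like nuclei had LHCGR alone in 13.5%, 60.4%, 44.3% and 42.6% and neither receptor in 65.4%, 20.9%, 25.7% and 46.5%. At this depth LHCGR alone was thus the most frequent state in Du'an 2 and Nubian 1, and neither in Du'an 1 and Nubian 2. Without thinning, both receptors together were the most frequent state in Nubian 1, at 35.1% against 32.5% with LHCGR alone. The most frequent state was unchanged in the other goats. After thinning LHCGR was found in 15.4%, 71.4%, 57.1% and 45.7% and FSHR in 21.2%, 18.7%, 30% and 10.9%. Both were found in 1.92%, 11%, 12.9% and 3.1%. The FSHR shares were near those of T or natural killer-like nuclei (13.3%, 27.8%, 24.9% and 10.1%). Before thinning the median theca-like nucleus had 0 FSHR UMIs in every goat and 0, 5, 2 and 0 LHCGR UMIs. The median mural-like nucleus had 4, 3 and 5 FSHR UMIs and 12, 2 and 2 LHCGR UMIs in Du'an 2, Nubian 1 and Nubian 2.

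**Figure D5:**
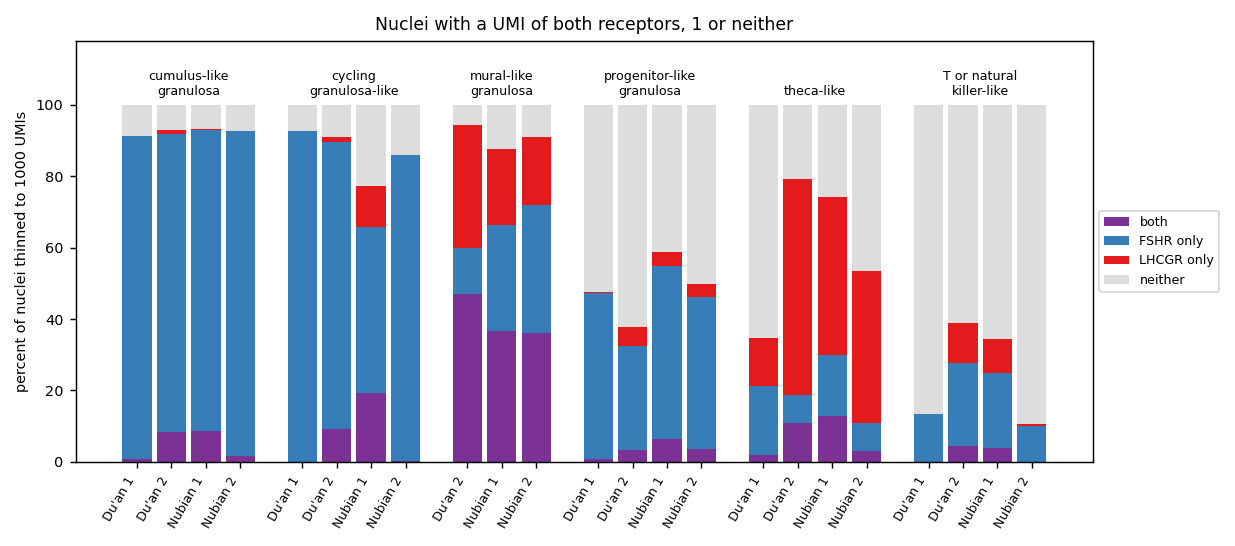
Stacked shares (percent, from 0) of nuclei thinned to 1000 UMIs with a UMI of both receptors, FSHR only, LHCGR only or neither, with 1 bar per goat and class. Cumulus-like bars are mostly FSHR only, mural-like bars hold 36.1% to 47.1% with both, and theca-like bars hold more LHCGR only than both in every goat.

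Where LHCGR sat in an ovary differed between goats. Mural-like nuclei held 81.4%, 77.6% and 59.2% of the LHCGR UMIs of Du'an 2, Nubian 1 and Nubian 2, and 0% in Du'an 1. Theca-like nuclei held 20.9% of those of Du'an 1 but 2.85%, 0.929% and 5.42% in the other goats. In Du'an 1 a further 24.9% lay in progenitor-like nuclei and 17.6% in clusters without a name. Over all kept nuclei LHCGR was 10.1, 778, 742 and 171 CPM and FSHR 1534, 2000, 1533 and 1285 CPM. LHCGR thus ranged far more widely between ovaries than FSHR did, and it was highest in the 2 goats with the most mural-like nuclei.

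The deposited tables list genes called for granulosa subtypes and for follicle stages, with the percent of nuclei of each group in which a gene was found, pooled over goats. FSHR is listed for cumulus granulosa cells, in 97.7% of their nuclei, among 1354 genes listed there. LHCGR is listed for mural granulosa cells, in 84.4% of nuclei, among 1191 genes. Neither is among the 1449 genes listed for common progenitor granulosa cells. Among stages FSHR is listed for primary (98.1%) and secondary follicles (96.7%) and LHCGR for antral follicles (82.6%). Neither is listed for the primordial stage. The authors used LHCGR itself to name the mural cells and FSHR to set apart granulosa cells, so these entries are descriptions of those groups and no independent evidence.

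Between the breeds no gene passed in any of the 11 classes with at least 20 nuclei in every goat, by edgeR's quasi-likelihood test with 2 goats against 2. The share of genes called was 0% in the cumulus-like, progenitor-like, cycling and theca-like classes alike, while 80 to 1094 genes of a class had an unadjusted p under 0.05. DESeq2 called 0 to 280 genes per class and 328 in total, and a fit with the replicate number as a block called 2. For FSHR in cumulus-like nuclei the log2 difference, Nubian minus Du'an, was -0.01, with a narrow interval of -0.53 to 0.50. For LHCGR the intervals were wide: 0.01 (-3.45 to 3.47) in cumulus-like nuclei, -0.27 (-2.07 to 1.52) in theca-like nuclei and 1.51 (-3.74 to 6.76) in cycling nuclei. FSHR was at 0.67 in theca-like, 0.34 in progenitor-like and -0.50 in cycling nuclei. Without a filter on low counts edgeR called LHCGR in cycling nuclei (1.54, adjusted p = 0.000863). The cycling levels of the breeds overlapped, at 1.02 and 189 CPM in Du'an and 500.2 and 8.58 CPM in Nubian goats, and the direction turned without Nubian 1 (-3.60 with the filter). A breed difference in LHCGR of several-fold lay within these intervals. The mural-like class could not be compared between breeds, since Du'an was left with 1 goat.

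The FSHR levels in CPM did not overlap between the breeds in 5 of the 11 classes, and the LHCGR levels overlapped in all 11. Over all genes tested in these classes 31.3% of levels did not overlap. The FSHR levels were higher in both Nubian goats in cumulus-like, theca-like and macrophage-like nuclei, and lower in both in cycling and lymphatic endothelial-like nuclei. The cumulus-like means were close, at 3478 CPM in Du'an and 3534 CPM in Nubian goats, and the edgeR difference given above had the other sign. Theca-like, macrophage-like and lymphatic endothelial-like levels lay in or below the T or natural killer-like range of 120 to 546 CPM. The 2 goats of each breed allow no exact permutation p (two-sided) under 0.33, and of 64 levels and shares compared every adjusted p was 1. The mural-minus-cumulus difference could be set between breeds with 1 Du'an goat against 2 Nubian goats only, which says nothing on whether it varies with breed. The difference of the differences, Nubian minus Du'an, was 0.40 for LHCGR (95% interval -2.07 to 2.86) and 0.39 for FSHR (-0.65 to 1.43).

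The hormones themselves were scarce in these nuclei. CGA, the shared alpha subunit, gave 3 UMIs in all kept nuclei, FSHB, the beta subunit of FSH, gave 0, LHB gave 109 and TSHB 35. The subunits are products of the pituitary, and these counts are at or near the floor of detection. Of the related receptors, TSHR gave 600 UMIs over all kept nuclei. LGR4, a receptor of R-spondins in the WNT pathway, averaged 704 ± 243 CPM in mural-like nuclei (n = 3) and 189 ± 46.3 CPM in cumulus-like nuclei (n = 4). It was higher in mural-like nuclei by 1.81 on the log2 scale (adjusted p = 0.00709), the only call among 4 tested LGR members, beside 17.6% of all genes. LGR5, an R-spondin receptor known from stem cells, was lower in cumulus-like than in progenitor-like nuclei (-4.99, adjusted p = 0.00133, where 25% of genes passed) and higher in theca-like nuclei (3.18, adjusted p = 0.0206, where 16.4% passed). LGR5 averaged only 0.80 CPM in cumulus-like nuclei, near the floor of detection. Over goats it ranged from 1.26 to 92.0 CPM in progenitor-like and from 2.49 to 86.4 CPM in theca-like nuclei. LGR6 was higher in theca-like nuclei (2.05, adjusted p = 0.0317). Its theca-like level averaged only 6.15 CPM (0 to 9.27 over goats), so this call rests on a level near the floor of detection. The LGR4 call was lost without Du'an 2 and the LGR5 call against progenitor-like nuclei without Du'an 1. Of the 2 theca-like calls 0 were left without Du'an 1 and 1 without each other goat.

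Between mural-like and cumulus-like nuclei, where LHCGR was higher and FSHR lower, 7.41% of all genes were higher and 10.2% lower, with a median log2 difference of -0.02. Of 24 tested G proteins, cyclases and kinases that act after the receptors, 7 were higher and 2 lower (median 0.18). The higher genes included PRKAR2B, a regulatory subunit of protein kinase A (1.30, SE 0.262), RAPGEF3, a cyclic AMP sensor (1.5, SE 0.363), and the phospholipase PLCB3 (1.38, SE 0.195). The catalytic subunit PRKACA was higher by 0.76, and the cyclase ADCY3 was lower (-1.22, SE 0.275). Of 26 genes that damp the signal, 4 were higher and 2 lower (median 0.30). The higher ones were the phosphodiesterases PDE4D (2.98, SE 0.505) and PDE8A (2.00, SE 0.398), the receptor kinase GRK5 (3.14, SE 0.998) and the kinase inhibitor PKIB (2.11, SE 0.505). PDE8B (-1.04) and PDE7A (-0.80), which also break down cyclic AMP, were lower. GRK5 rested on Nubian 2, with mural-like levels of 33.9, 52.4 and 1322 CPM in Du'an 2, Nubian 1 and Nubian 2, and without that goat it was at 0.68 (adjusted p = 0.0931). PDE4D was highest in Du'an 2 (965, 254 and 178 CPM) and still passed without it (1.97, adjusted p = 0.0372). PKIB did not pass without Du'an 2 (1.10, adjusted p = 0.259), and PRKACA did not pass when any 1 goat was left out.

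Of 12 genes known to be induced by FSH in granulosa cells, 8 were higher in mural-like nuclei and 0 lower (median 1.78), but 6 of the 8 were marker genes used for naming. The 2 others were PAPPA, a protease that frees insulin-like growth factors (6.65, SE 1.38), and the lipoprotein receptor LRP8 (3.73, SE 0.391). PAPPA ranged from 28.1 CPM in the mural-like nuclei of Du'an 2 to 1536 CPM in those of Nubian 2. Without Nubian 2 its difference was 4.36 (adjusted p = 0.00632), and without Du'an 2 the adjusted p was 0.0580. Of 15 tested genes of the LH surge, 5 were higher and 5 lower (median 0.21). Among the 5 higher, CYP11A1 (3.97) and STAR (2.26) were theca markers used for naming. The growth factor EREG (5.54, SE 0.543), the matrix protein gene TNFAIP6 (3.41) and the factor CEBPB (1.62) were higher, the last only past the threshold with all goats or without Du'an 1. The protease gene ADAMTS9 (-2.08), the growth factor BTC (-1.77), RUNX2 (-1.44) and ERRFI1 (-1.40) were lower. EREG was at only 22.0 ± 9.01 CPM in mural-like nuclei, so its fold rests on a low level. Of 15 factors known at the FSHR or LHCGR promoters, 4 were higher and 2 lower (median 0.26). GATA6 (1.89) and FOXO1 (1.11) were higher besides 2 markers, and NR2F6, a repressor of LHCGR, was among the lower (-0.66), a call lost when any 1 goat was left out.

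These counts leaned on Du'an 2, the mural-like class of highest LHCGR. Without it 312 genes passed in place of 2302, and the higher and lower members were 1 and 0 for kinases, 1 and 0 for damping genes, 2 and 0 for FSH-induced genes, 2 and 0 for LH surge genes and 0 and 0 for promoter factors. Without Nubian 1 the higher kinases fell from 7 to 2. Without Nubian 2 the higher damping genes fell to 2 and the higher promoter factors to 2. The lower kinases fell to 1 without Du'an 1 or Nubian 2, and the lower promoter factors to 1 without Du'an 1, Nubian 1 or Nubian 2.

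From progenitor-like to cumulus-like nuclei, where FSHR was higher, 11.1% of all genes were higher and 13.9% lower (median 0.01). Of the 12 FSH-induced genes 6 were higher and 0 lower (median 0.97), 2 of them markers. HSD17B1, which makes estradiol from estrone, was higher by 2.80 (SE 0.376), CCND2, a cyclin, by 2.22 (SE 0.40) and VEGFA by 1.52 (SE 0.344), the last not past the threshold without Du'an 1 (adjusted p = 0.0656). Of 15 promoter factors 8 were higher and 1 lower (median 0.56), 4 of the 8 markers. The estrogen receptors ESR2 (1.84) and ESR1 (0.81) were higher, and USF1, which binds an E-box of the FSHR promoter, was lower (-0.83). Of 15 LH surge genes 2 were higher and 7 lower (median -0.93). RUNX2 (-4.50), PTX3 (-2.29) and the immediate early gene EGR1 (-1.96) were lower, and BTC was higher (2.08).

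Among 24 kinases and their partners 3 were higher and 5 lower, and among 26 damping genes 3 and 4. The higher ones included RAPGEF4, a cyclic AMP sensor (1.48), PDE8B (1.75) and MVK, the mevalonate kinase known to bind LHCGR transcripts (1.48). RGS2, which shortens G protein signals, was lower (-2.23, SE 0.311), as was the cyclase ADCY5 (-1.99), which without Nubian 2 was at -0.77 (adjusted p = 0.152). Without Du'an 1 the higher kinases fell to 1, the lower damping genes to 1 and the higher promoter factors to 5. Without Du'an 2 the lower damping genes fell to 2, the lower kinases to 3 and the higher LH surge genes to 1. The lower kinases fell to 3 without Nubian 1 and to 2 without Nubian 2.

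In theca-like nuclei, against the mean of the other classes, 9.39% of genes were higher and 6.98% lower (median -0.09). Of 27 kinases and partners 4 were higher and 4 lower. RAPGEF4 (1.71, SE 0.176), PRKAR1B, a regulatory subunit of protein kinase A (1.80, SE 0.319), and PLCB1 (1.31, SE 0.166) were higher. Of 28 damping genes 3 were higher and 6 lower. PDE8B (2.05, SE 0.173) and PDE1A (1.26) were higher, and PDE4D (-1.85, SE 0.380) and the arrestin ARRB1 (-2.20), which uncouples receptors, were lower. ARRB1 did not pass without Du'an 1, Du'an 2 or Nubian 2 (adjusted p between 0.0790 and 0.137). Its theca-like level averaged only 2.99 CPM (0 to 8.86 over goats), near the floor of detection. PDE4D and PDE8B thus had opposite signs in the contrasts of the 2 classes rich in LHCGR, but these contrasts have different references. Mean PDE4D levels were 56.7, 139 and 466 CPM in cumulus-like, theca-like and mural-like nuclei. Both classes rich in LHCGR thus had a mean above that of cumulus-like nuclei. Mean PDE8B levels were 1583, 1615 and 660 CPM in the same order. The difference between the 2 classes was not tested.

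Of 18 LH surge genes 3 were higher and 2 lower in theca-like nuclei, and 2 of the 3 were theca markers. The third was the progesterone receptor PGR (0.82, SE 0.249), which did not pass without Du'an 1 (0.60, adjusted p = 0.154). Of 12 FSH-induced genes 1 was higher and 1 lower, both of them markers. Of 14 promoter factors 4 were higher and 1 lower, all but ESR2 (1.41, SE 0.373) being markers, and ESR2 did not pass without Du'an 2 (1.19, adjusted p = 0.105). The counts of lower members were unsteady, with the damping genes at 3 without Du'an 1, 1 without Du'an 2 and 2 without Nubian 1, and the kinases at 1 without Du'an 1 or Du'an 2 and 2 without Nubian 1 or Nubian 2. The lower FSH-induced gene and the lower promoter factor were lost without Du'an 1 or Du'an 2, and the lower promoter factors were 2 without Nubian 1.

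The genes whose level over the 52 sums of goat and class was most like each receptor were ranked by Pearson's r of log2(CPM + 1), as a description, since the sums share goats and classes. For FSHR they were ADGRB3, an adhesion receptor (0.956), SMAD2, which carries activin and TGF-beta signals (0.95), GCLC, of glutathione synthesis (0.934), TLL2 (0.928), GPC5 (0.923) and HS6ST2 (0.913). For LHCGR they were PDZRN3 (0.794), TMEM200A (0.785), PPM1K (0.782), the ammonium transporter RHBG (0.762), CYP11A1, which starts steroid synthesis and is annotated as LOC102173131 (0.743), and SYCP1 (0.741). TMEM200A and CYP11A1 were also markers. FSHR and LHCGR themselves had an r of 0.0903.

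The 2 receptors lie side by side in the goat RefSeq annotation of ARS1.2, with no gene listed between them. STON1 and GTF2A1L follow on the side of LHCGR, and LOC102175771 and LOC102182134 on that of FSHR. Neither neighbour shared the levels of the receptors, with STON1 at 17.5, 18.7 and 23.3 CPM on average in cumulus-like, mural-like and progenitor-like nuclei and 25.6 CPM in theca-like nuclei. GTF2A1L was between 1.30 and 2.58 CPM in the granulosa subtypes.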

How the data were processed

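Nuclei of whole ovaries were sequenced on the 10x Genomics 3′ platform. The authors made the deposited count matrices with Cell Ranger (5.0.0 in the submitters' processing notes), and each value is a raw UMI count per gene and nucleus. The headers of the matrices name another software version. The build's name and whether intronic reads were counted were not given in the sources used here. The 2 deposited tables give the share of nuclei with a gene, a fraction computed by the authors, together with their own fold changes and p-values, which were not used.

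Nuclei within 2 SD of their library's mean UMIs and mean number of genes, both without a log, and with at most 20% mitochondrial UMIs were kept. Clustering was run in Python (scanpy 1.11.5, leidenalg 0.10.2) on 2000 variable genes at resolution 0.8, and granulosa nuclei were clustered again at 0.5. The variable genes excluded 245 genes, among them both receptors, the markers, the lists and 13 mitochondrial genes. A cluster outside the granulosa set, or a granulosa subtype other than cycling, was named where at least 3 markers of a list were raised. Clusters of enough depth whose best list was a granulosa list joined the granulosa set without that minimum. They included a cluster of 2512 nuclei, 2153 from Du'an 1, with 2 of 5 markers raised. Limits on naming were set after the clusters were seen. Clusters of low depth without own markers among the 10 leading genes stayed unnamed. Scrublet called 0, 0, 2 and 2 doublets, so the caller did not work, and removing the 10% highest scores was an alternative.

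Counts were summed per goat and class and tested with edgeR 4.0.16 (quasi-likelihood, TMM, goat as a block, filterByExpr) with Benjamini-Hochberg adjustment over all genes tested; DESeq2 1.42.0 was an alternative. The scripts were tested on simulated data. Binomial intervals (95%, Clopper-Pearson) and floors of 3 counts cover counting error only. A library held 40573246 to 71613892 UMIs.

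The receptors, the markers and the lists were chosen with earlier results of these data known. Genes named in the text were, by rule, taken from the list members past an adjusted p of 0.05, up to 6 per list and direction by size of change, with the 6 genes most like each receptor and the nearest genes beside them; related members outside it were named after their values were seen. GNAS, GNAQ, PDE1C, SULT1E1, HSD3B1, ABCA8, CD163, MUC16 and UPK3B had no match by name. Mural-like nuclei entered no comparison of breeds but the mural-minus-cumulus difference, with 1 Du'an goat and no p given. A member of the list of promoter factors is counted in that list but is not reported here by name.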

Additional observations from a re-analysis of the deposited data

Results flagged for a closer look

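Some values outside the named comparisons came from 2 clusters that were left without a name because of their low depth (medians of 829 to 988 UMIs per goat). Signal of both receptors was present in them above the limit that a count of 0 allows. FSHR was at 376, 756, 878 and 450.2 CPM in Du'an 1, Du'an 2, Nubian 1 and Nubian 2, and LHCGR at 16.4, 765, 829 and 64.3 CPM. The clusters held 2624, 511, 985 and 2874 nuclei, and the best marker list of one was smooth muscle and of the other mural granulosa. These LHCGR levels lay above the T or natural killer-like level of the same goat in every goat (0, 262, 159.5 and 12.9 CPM). Granulosa nuclei that met no subtype rule also entered no comparison, at 1955, 75, 35 and 106 nuclei. Their FSHR was at 1542, 1251, 1496 and 2061 CPM and their LHCGR at 5.12, 173, 196 and 77.2 CPM. In Du'an 1 they held 31.0% of the FSHR UMIs and 15.6% of the LHCGR UMIs.

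A luteal-like cluster of 71 nuclei was present in Nubian 1 alone and entered no comparison. It had FSHR at 1201 CPM and LHCGR at 78.1 CPM, both above the limit of a count of 0, and its LHCGR lay below the T or natural killer-like level of that goat. With 2 goats per breed, no test for a goat far from its group was possible.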

How the results depend on the processing

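The calls of LHCGR in mural-like, theca-like and cumulus-like nuclei and of FSHR in the granulosa subtypes, each against the mean of the other classes, kept their direction and side of the threshold under every alternative that gave a value. Leaving out 1 goat in turn gave 3.53 to 4.96 (LHCGR, mural-like), 3.51 to 4.28 (LHCGR, theca-like), 2.95 to 3.32 (FSHR, cumulus-like) and 5.07 to 6.20 (LHCGR, mural-like against cumulus-like). Leaving out 1 goat gave, for FSHR, -1.04 to -0.75 between mural-like and cumulus-like nuclei and 0.87 to 1.24 between mural-like and progenitor-like nuclei. For LHCGR it gave 3.95 to 4.30 between mural-like and progenitor-like nuclei, -5.50 to -3.02 between cycling and mural-like nuclei, -0.97 to 0.15 in progenitor-like nuclei, -1.46 to 0.30 in cycling nuclei and -0.38 to 0.0077 in fibroblast-like nuclei. Between the breeds it gave -0.063 to 0.036 for FSHR in cumulus-like nuclei, and for LHCGR -1.62 to 3.73 in cumulus-like, -3.60 to 8.08 in cycling and -1.04 to 1.56 in theca-like nuclei. Where a goat left an arm with 1 sample, that sample was assumed to vary like the others. Choosing nuclei by markers in place of clusters gave 0.84 for FSHR in theca-like nuclei (adjusted p = 0.371 by edgeR), -0.66 for FSHR (0.0355) and 1.77 for LHCGR (0.0478) between cycling and cumulus-like nuclei, 0.68 for LHCGR in cycling and 0.088 in fibroblast-like nuclei. Without the highest doublet scores LHCGR was at 0.060 in progenitor-like, 0.054 in cycling and 0.089 in fibroblast-like nuclei and -0.013 between the breeds in cumulus-like nuclei. LHCGR in fibroblast-like nuclei was 0.020 with DESeq2's size factors in edgeR and 0.68 with DESeq2. Without a filter on low counts LHCGR between the breeds was -0.00456 in cumulus-like and 1.54 in cycling nuclei (adjusted p = 0.000863). The cause of these changes was not tested. Mural-like against cumulus-like nuclei called 2302 genes, 745 with marker-chosen nuclei and 312 without Du'an 2.

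Shares moved with depth. FSHR in cumulus-like nuclei was found in 76.4% at 500 UMIs, 98.4% at 2000 and 97.1% without thinning, and LHCGR in mural-like nuclei in 48.2% at 500. Both were found in 20.1% of mural-like nuclei at 500 UMIs, 62.7% at 2000 and 70.0% without thinning, and in 19.3% of all kept nuclei without thinning. Mean shares at the main depth of 1000 UMIs were 92.2% (FSHR, cumulus-like), 64.9% (LHCGR, mural-like), 40.0% (both, mural-like) and 9.08% (both, all kept nuclei). At that depth, leaving out 1 goat gave 92.0% to 92.6%, 56.6% to 69.8%, 36.4% to 41.9% and 5.95% to 11.9%, in the same order. For LHCGR in theca-like nuclei it gave 39.4% to 58.1% at that depth.

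The replicate numbers are only names, and deviations of same-numbered goats correlated between -0.248 and 0.0976 over classes. With the replicate block LHCGR between the breeds in theca-like nuclei was 0.17, and 2 genes were called over 11 classes. A crossed pairing, chosen after seeing the data, called 243. In Du'an 1 the LHCGR count of 0 in T or natural killer-like nuclei allows up to 8.89 CPM by the floor of 3 counts. The exact interval allows up to 10.9 CPM.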
